A study of Saccharomyces cerevisiae with 8 samples.

Results

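The 10 genes described here encode subunits of Mediator, and they were chosen by name, by their place in the complex and with earlier results of these data known, from the 6103 genes of the expression table. Mediator is the large complex that carries signals from DNA-bound activators to RNA polymerase II. Its head contacts the polymerase and helps to assemble it at promoters, its tail is the landing place of many activators, and a separable kinase module built around Cdk8 and cyclin C binds the core complex reversibly and was first found in yeast through mutations that relieve glucose repression or the effects of a truncated polymerase tail. The head is represented by SRB2 (YHR041C, Med20), SRB4 (YER022W, Med17), SRB5 (YGR104C, Med18) and SRB6 (YBR253W, Med22). The tail is represented by MED2 (YDL005C) and GAL11 (YOL051W, Med15), and the kinase module is complete with SRB8 (YCR081W, Med12), SSN2 (YDR443C, Med13), SSN3 (YPL042C, Cdk8) and SSN8 (YNL025C, cyclin C).

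The study compared ScY01a, a haploid MATa strain derived from an evolved thermotolerant industrial Saccharomyces cerevisiae, with derivatives that lack SIN3 (sin3∆), SRB2 (srb2∆) or MIG1 (mig1∆), in which a KanMX resistance cassette replaces the open reading frame. Sin3p is the scaffold of histone deacetylase complexes, Srb2p is itself one of the head subunits, and Mig1p is a DNA-binding repressor of genes that glucose keeps silent. The deletion strains carry the KanMX marker and the wild type strain does not. Each of the 4 strains has 2 libraries, from early-log cultures of 10 h at 30 °C and 200 rpm in YP medium with 200 g/L glucose. Expression is labelled as RPKM, the reads of a gene scaled to its length and to the mapped reads of its library, so levels of different genes can be set side by side. The values appear to carry a further scaling between libraries. RNA was not set against cell number, so every value is relative to the RNA sequenced and is not an amount per cell. With 2 libraries per strain the spread is small-sample, and the labels do not say whether the 2 came from separate transformants.

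SRB2 is both one of the genes described and the target of a deletion, and its locus shows what the 0 values in the srb2∆ libraries stand for. In the R64 genome it lies on the minus strand at chrVIII:189131-189864 and has 2 exons, a first coding exon of only 14 bases at chrVIII:189851-189864 and a second of 619 bases, separated by an intron of 101 bases. The study's primers for the homology arms were matched to R64, and their 3′ stretches that match the chromosome are shown because they bound the replaced segment.
Upstream arm, outer primer, chrVIII:190345-190364, minus strand: TGCAAAACGATAAAAGCTGG
Upstream arm, inner primer, chrVIII:189865-189883, plus strand: GATGGATTGCTACTGTGCT
Downstream arm, inner primer, chrVIII:189126-189145, minus strand: GCTCTGGAGCTGTGAGTTCT
Downstream arm, outer primer, chrVIII:188626-188646, plus strand: CAGAAGAGTGGGCTCAAATTC
The segment between the inner primers is chrVIII:189146-189864, 719 bases that hold both exons except the last 15 coding bases. SRB2 was listed at 0 RPKM in both srb2∆ libraries and at 56.5 RPKM or more in the other 6.

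The other deletions were also visible: SIN3 and MIG1 were each listed at 0 in both libraries of their own strain. Of the 6 a-specific genes checked, STE2, STE6, BAR1 and AGA2 were above 9 RPKM in every library, MFA1 and MFA2 were listed at 0 in all 8, and of the alpha-specific genes STE3 stayed at 0.352 RPKM or lower. The others of the 4 alpha-specific genes were at 4.41 RPKM or lower for MF(ALPHA)1, at 15.4 to 21.8 for MF(ALPHA)2 and at 11.2 to 18.1 for SAG1. MFA1 and MFA2 encode very short transcripts, and they are not used further. By the limma test described below, all 4 a-specific genes above 0 fell in sin3∆, by a median of 1.53 on the log2 scale, and 3 of the 4 fell in srb2∆, with a median of -0.50. Of the 3 alpha-specific genes tested, 2 fell in each of these strains, with medians of -0.42 in sin3∆ and -0.55 in srb2∆. Over all genes tested, 35.6% fell in sin3∆ and 36.3% in srb2∆. Cytosolic ribosomal protein genes held 19.3% to 25.9% of all RPKM of a library in wild type and mig1∆, and 41.1% to 42.8% in the other 2 strains. When the libraries were rescaled on the genes outside that set, the median log2 difference of all genes from wild type went from -0.01 to 0.21 in srb2∆, and between sin3∆ and srb2∆ from 0.01 to -0.13. The genes past the test were then 61.9% higher, in place of 49.4%, in srb2∆, 72.7% higher, in place of 61.1%, in mig1∆, and 40.4% higher, in place of 52.6%, between sin3∆ and srb2∆. Quantile normalization gave 39.7% for the last of these. The part of the ribosomal protein genes in the results below was not tested beyond these rescalings.

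In the wild type strain the 10 genes spanned a wide range of levels per length. The order ran from SRB6, with a mean of 85.7 RPKM, and SRB2, with 81.0 RPKM, through SSN3 with 43.7, GAL11 with 42.8, MED2 with 30.9, SRB5 with 27.1, SSN8 with 21.9 and SRB4 with 18.6, down to SSN2 with 7.35 and SRB8 with 3.81 RPKM. The libraries of SRB6 and SRB2 overlapped, as did those of SSN3 and GAL11, and the other neighbours in this order did not overlap. The largest subunits of the kinase module, SRB8 and SSN2, were the scarcest transcripts of the set, and SRB8 ranked in the lowest 6.25% or less of the genes tested in both wild type libraries. In sin3∆ SRB8 stood in the fifth place, above GAL11 and MED2.

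**Figure D1:**
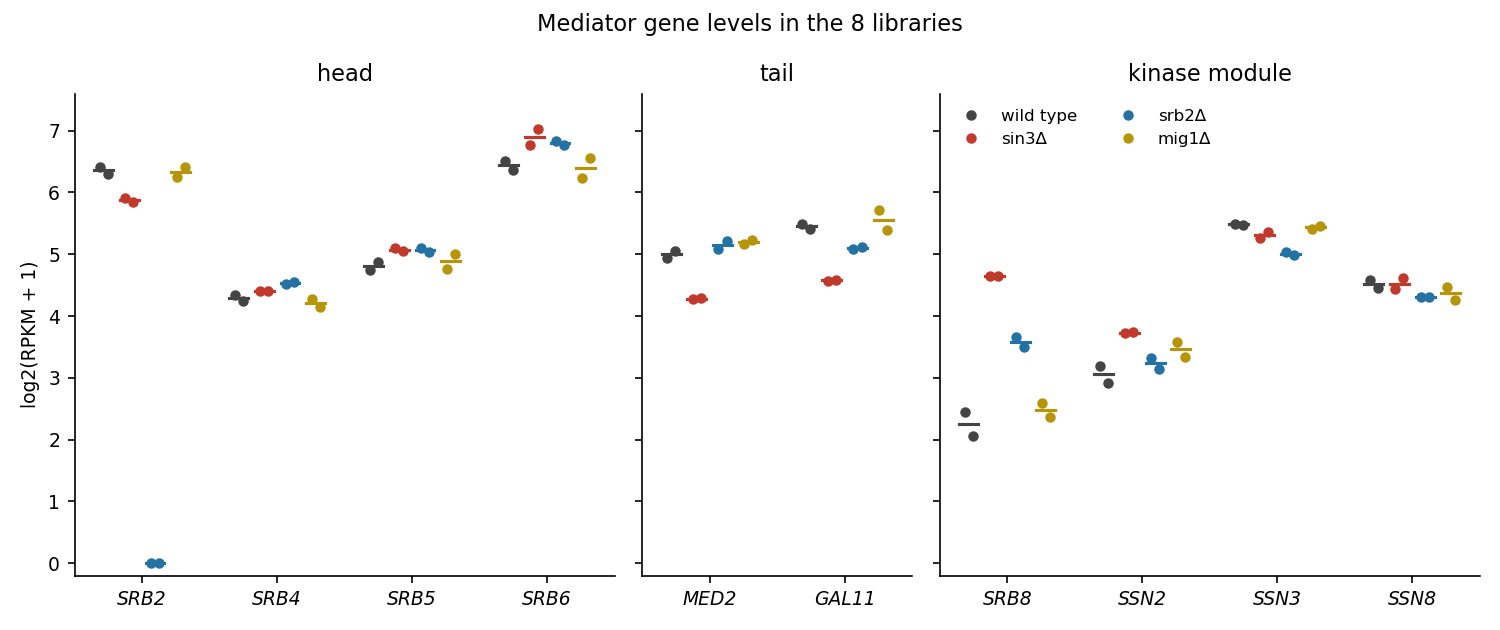
Levels of the 10 Mediator genes in the 8 libraries, as log2(RPKM + 1) on the vertical axis, by module; each point is a library and each short line the mean of the 2 libraries of a strain. SRB8 is higher in sin3∆ and srb2∆ than in wild type, MED2 and GAL11 are lowest in sin3∆, and SRB2 is at 0 in srb2∆.

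Differences between strains were tested with limma on log2(RPKM + 1) in the 5628 genes that reached 1 RPKM in at least 2 libraries, which included all 10. A gene is said to have risen or fallen where the Benjamini-Hochberg adjusted p over those genes was at most 0.05, and it is called where it also differed by at least 2-fold. The log2 scale with an added 1 understates the change of scarce genes, so for some genes the ratio of mean RPKM is given beside it. The 3 comparisons with wild type share the same 2 wild type libraries and are not independent of each other.

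In sin3∆, 4 of the 10 genes rose, 3 fell and 3 did not pass the test. In the same comparison 38.4% of all genes tested rose and 35.6% fell, so the counts of the Mediator genes lie near the background. SRB8 was the 1 gene of the 10 that was called, against 29.9% of all genes. The median log2 difference of the 10 was 0.06, beside 0.01 over all genes. In srb2∆, where SRB2 itself is left out, 4 of 9 genes rose and 2 fell, against a background of 35.5% and 36.3%, and again SRB8 was the 1 called, against 29.9%. The 7 genes past the test in sin3∆ became 5 to 6 on leaving out 1 library at a time, and the 6 in srb2∆ became 2 without either srb2∆ library and 4 without either wild type library, with SRB8 called each time. In mig1∆ no gene of the 10 passed the test, where 7.41% of all genes rose, 4.71% fell and 1.65% were called by limma. At an unadjusted p of at most 0.05 there were 2 of the 10, MED2 and SSN2, both higher. Across all genes, 946 were higher and 679 lower in mig1∆ at an unadjusted p of at most 0.05.

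**Figure D2:**
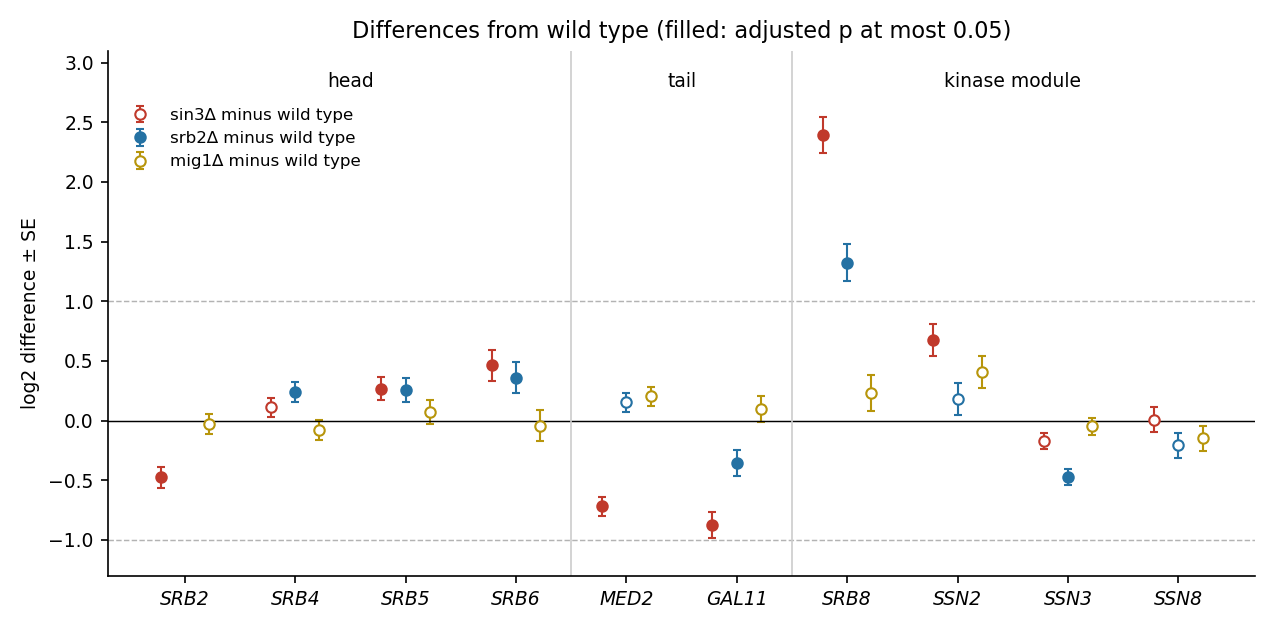
Log2 differences from wild type of the 10 Mediator genes in sin3∆, srb2∆ and mig1∆, with standard errors from limma; filled points have an adjusted p of at most 0.05 and dashed lines mark 2-fold. SRB8 lies above the upper dashed line in sin3∆ and srb2∆, and every mig1∆ point is open.

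SRB8 encodes Med12, the kinase module subunit that contacts cyclin C and activates Cdk8. It was at 4.44 and 3.18 RPKM in the wild type libraries, 24.2 and 24.0 in the sin3∆ libraries, 11.6 and 10.3 in the srb2∆ libraries, and 5.05 and 4.18 in mig1∆. The sin3∆ and srb2∆ libraries did not overlap with wild type or with each other, whereas the mig1∆ libraries did overlap with wild type. SRB8 rose 6.31-fold in sin3∆, a log2 difference of 2.39 ± 0.15 (SE, n = 2 and 2, limma adjusted p = 7.3e-06). The rise in srb2∆ was 2.87-fold, a log2 difference of 1.32 ± 0.15 (limma adjusted p = 0.00016). Its level in sin3∆ was 2.198-fold that in srb2∆, with a log2 difference of 1.07 ± 0.15 (limma adjusted p = 0.00083). Without srb2∆ replicate 3 the latter was 0.99, just short of the 2-fold line, and a pseudocount of 5 took the srb2∆ rise to 0.86.

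The window around the start of SRB8, from 250 bases before the start codon to 50 bases from it, is shown because this gene changed most, and those of GAL11 and MED2 because these are the 2 tail genes, which both fell in sin3∆. Sequences are from the RefSeq R64 assembly, 5′ to 3′ on the coding strand. Capitals mark the start codon and any match to 5 short motifs searched on both strands, the Gcn4 core TGACTC, the stress response element AGGGG, the Ume6 core GCCGCC and the Mig1 cores CCCCGC and CCCCAC.
SRB8, chrIII:254121-254420, plus strand: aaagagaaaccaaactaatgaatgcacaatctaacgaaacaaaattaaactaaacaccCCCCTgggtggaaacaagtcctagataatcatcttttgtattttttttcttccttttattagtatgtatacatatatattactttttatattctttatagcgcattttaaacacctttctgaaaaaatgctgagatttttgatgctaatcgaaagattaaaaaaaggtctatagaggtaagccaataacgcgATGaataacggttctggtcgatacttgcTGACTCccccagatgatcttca
GAL11, chrXV:234690-234989, plus strand: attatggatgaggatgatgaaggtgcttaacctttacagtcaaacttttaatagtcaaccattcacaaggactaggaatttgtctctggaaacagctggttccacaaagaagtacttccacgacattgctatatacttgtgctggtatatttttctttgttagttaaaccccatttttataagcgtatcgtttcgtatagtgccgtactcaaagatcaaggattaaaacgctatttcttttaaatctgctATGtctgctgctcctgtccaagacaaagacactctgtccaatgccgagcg
MED2, chrIV:442260-442559, minus strand: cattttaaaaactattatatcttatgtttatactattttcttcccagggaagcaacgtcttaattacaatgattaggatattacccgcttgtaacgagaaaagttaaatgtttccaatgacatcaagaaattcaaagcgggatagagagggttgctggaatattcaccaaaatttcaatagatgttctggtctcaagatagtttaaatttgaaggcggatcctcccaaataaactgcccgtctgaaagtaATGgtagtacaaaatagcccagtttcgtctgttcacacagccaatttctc
The SRB8 window holds AGGGG on the other strand, 192 to 188 bases before the start codon, and TGACTC inside the coding sequence, at coding bases 29 to 34. The GAL11 and MED2 windows hold none of the 5 motifs. Among the 10 windows AGGGG was found in 3, those of SRB2, SRB6 and SRB8, and in 21.6% of the windows of all 6007 coding genes of the annotation. TGACTC was found in 1 of the 10 and in 7.97% of all windows, and GCCGCC in 1, that of SSN3, and in 5.14% of all. Neither Mig1 core was found in the 10 windows; CCCCGC was in 2.58% and CCCCAC in 4.38% of all. No match overlapped another. These are letter matches in fixed windows and not measured binding.

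SRB8 lies on the plus strand at chrIII:254371-258654, and no annotated gene overlaps it. Its neighbours on the same strand are PTC6, a protein phosphatase gene that ends 197 bases before it, and AHC2, a gene for a subunit of the Ada histone acetyltransferase complex that starts 228 bases after it. Both were looked at after the values of SRB8 were known. AHC2 was at 153 and 194 RPKM in wild type, 383 and 424 in the sin3∆ libraries and 339 and 309 in the srb2∆ libraries. It rose by 1.22 ± 0.15 (SE) on the log2 scale in sin3∆ (limma adjusted p = 0.00018) and by 0.90 ± 0.15 in srb2∆ (limma adjusted p = 0.00091). PTC6 rose by 0.45 ± 0.09 in sin3∆ (limma adjusted p = 0.0033), and its log2 difference in srb2∆ was 0.11 ± 0.09 (limma adjusted p = 0.30). The gene after SRB8 thus moved in the same direction as SRB8 in both strains, by less. The part of shared or read-through transcripts in this was not tested.

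The 3 partners of SRB8 in the kinase module moved differently. SSN2 encodes Med13, which links the module to the core of Mediator. It was at 8.11 and 6.59 RPKM in wild type, 12.2 and 12.4 in the sin3∆ libraries, 9.05 and 7.85 in the srb2∆ libraries, and 10.98 and 9.15 in mig1∆. It rose 1.67-fold in sin3∆, by 0.68 ± 0.14 (SE) on the log2 scale (limma adjusted p = 0.0030). In mig1∆ both libraries lay above both wild type libraries, but the log2 difference of 0.41 ± 0.14 did not pass the test (limma adjusted p = 0.10), and without wild type replicate 2 it was 0.54 (limma adjusted p = 0.047). In srb2∆ it was 0.18 ± 0.14 (limma adjusted p = 0.27).

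SSN3 encodes Cdk8, the kinase itself. Its 2 wild type libraries were at 43.9 and 43.6 RPKM, sin3∆ at 37.5 and 40.1, srb2∆ at 31.7 and 30.7 and mig1∆ at 41.6 and 42.9. The srb2∆ libraries were the lowest of the 8. SSN3 fell in srb2∆ to 0.713 of its wild type level, a log2 difference of -0.47 ± 0.07 (SE, n = 2 and 2, limma adjusted p = 0.00050). Rescaled on genes other than ribosomal protein genes it was -0.25 (limma adjusted p = 0.023), or -0.45 relative to the median of all genes under that scaling. In sin3∆ the difference was -0.17 ± 0.07 (limma adjusted p = 0.057). SSN8 encodes cyclin C, which activates Cdk8. It was at 22.9 and 20.9 RPKM in wild type, 20.6 and 23.5 in the sin3∆ libraries, 18.9 and 18.8 in the srb2∆ libraries, and 21.2 and 18.2 in mig1∆. No comparison of SSN8 passed the test, and its log2 difference was 0.01 ± 0.11 in sin3∆ and -0.21 ± 0.11 in srb2∆ (limma adjusted p = 0.95 and 0.11). The latter turned to 0.02 on that rescaling, or -0.19 relative to the median.

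The proportions among the 4 kinase module transcripts differed between strains. The ratio of SSN3 to SRB8 was 9.88 and 13.7 in the wild type libraries and 8.24 and 10.2 in mig1∆. It was 1.55 and 1.68 in sin3∆ and 2.73 and 2.99 in srb2∆. SRB8 made up 5.60% and 4.28% of the summed RPKM of the 4 genes in wild type and 6.41% and 5.62% in mig1∆. Its share was 25.6% and 23.9% in sin3∆ and 16.3% and 15.2% in srb2∆. The ratio of SSN3 to SSN8, the kinase and its cyclin, varied less, between 1.64 and 2.35 in all 8 libraries. It was 1.92 and 2.08 in wild type and 1.97 and 2.35 in mig1∆. In sin3∆ it was lower, at 1.82 and 1.71, and in srb2∆ it was 1.68 and 1.64. In wild type and mig1∆ SRB8 was below SSN2 in every library, at 0.457 to 0.548 of its level. In sin3∆ it was 1.94 to 1.98 times SSN2 and in srb2∆ 1.28 to 1.31 times. The summed RPKM of the 4 genes was 76.8 ± 3.58 (SD, n = 2) in wild type, 97.2 ± 3.91 in sin3∆, 69.4 ± 2.56 in srb2∆ and 76.6 ± 3.09 in mig1∆. Without SRB8 the sum was 73.0 ± 2.69 in wild type and 73.2 ± 4.06 in sin3∆, and it was 58.5 ± 1.61 in srb2∆.

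**Figure D3:**
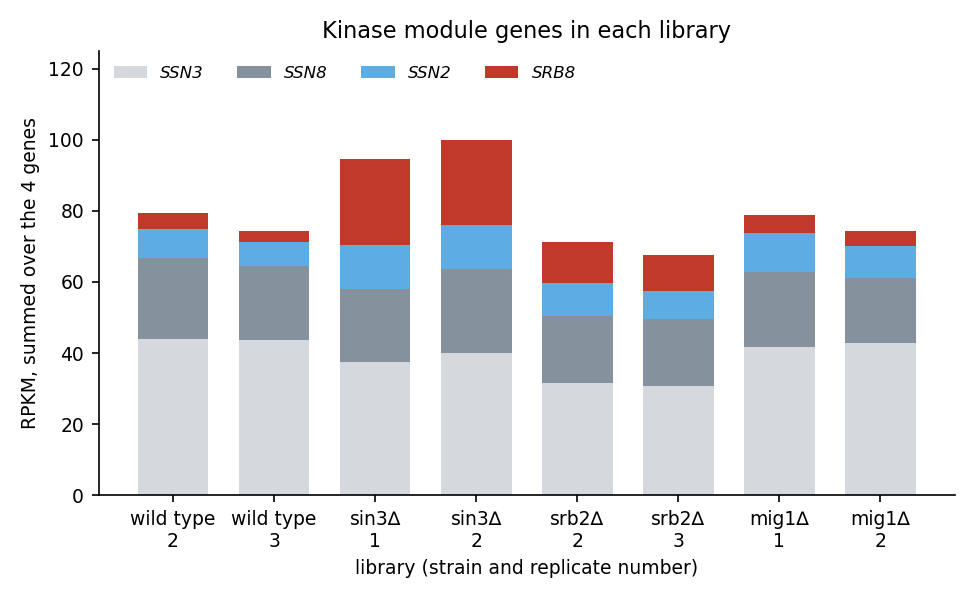
RPKM of the 4 kinase module genes, stacked, in each of the 8 libraries, named by strain and replicate number. SRB8, at the top of each bar, takes 25.6% and 23.9% of the bar in sin3∆ and 16.3% and 15.2% in srb2∆, against 5.60% and 4.28% in wild type.

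Both tail genes fell in sin3∆. GAL11 encodes Med15, the tail subunit that activators such as Gcn4 and Gal4 bind. It was at 44.1 and 41.5 RPKM in wild type, 22.7 and 23.0 in the sin3∆ libraries, 33.0 and 33.6 in the srb2∆ libraries, and 51.4 and 40.8 in mig1∆. The sin3∆ libraries were the lowest and srb2∆ came next, with no overlap between these 2 strains or with wild type. GAL11 fell to 0.535 of wild type in sin3∆, a log2 difference of -0.87 ± 0.11 (SE, n = 2 and 2, limma adjusted p = 0.00022). The fall in srb2∆ was -0.35 ± 0.11 (limma adjusted p = 0.021). The smaller difference no longer passed the test on leaving out wild type replicate 2 (-0.31, limma adjusted p = 0.079), srb2∆ replicate 2 (-0.34, limma adjusted p = 0.083) or srb2∆ replicate 3 (-0.36, limma adjusted p = 0.067). Rescaled on genes other than ribosomal protein genes it was -0.12, or -0.33 relative to the median of all genes under that scaling.

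MED2, which sits beside Med15 and Med3 in the tail, was at 29.7 and 32.2 RPKM in wild type, 18.3 and 18.5 in the sin3∆ libraries, 32.9 and 36.1 in the srb2∆ libraries, and 34.9 and 36.7 in mig1∆. The sin3∆ libraries alone lay below wild type. MED2 fell in sin3∆ to 0.594 of wild type, a log2 difference of -0.72 ± 0.08 (SE, n = 2 and 2, limma adjusted p = 0.00013). Its log2 difference was 0.15 ± 0.08 in srb2∆ and 0.20 ± 0.08 in mig1∆ (limma adjusted p = 0.13 and 0.15). The summed RPKM of the tail pair was 73.7 ± 0.15 (SD, n = 2) in wild type, 41.3 ± 0.36 in sin3∆, 67.8 ± 2.71 in srb2∆ and 81.8 ± 6.23 in mig1∆. The ratio of GAL11 to MED2 was 1.29 to 1.48 in wild type, 1.24 to 1.25 in sin3∆ and 0.929 to 1.004 in srb2∆.

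Among the head genes SRB2 itself fell in sin3∆, and of the other 3 SRB6 and SRB5 rose there. SRB2 encodes Med20, which pairs with Med18 in the movable part of the head. It was at 84.2 and 77.8 RPKM in wild type, 59.3 and 56.5 in sin3∆, and 75.3 and 83.9 in mig1∆. The fall in sin3∆ was to 0.715 of wild type, a log2 difference of -0.48 ± 0.09 (SE, n = 2 and 2, limma adjusted p = 0.0016), and the 2 strains did not overlap. Its annotated neighbours moved the other way: NCP1, a cytochrome P450 reductase gene, rose by 0.50 ± 0.11 and BCD1, a gene for a factor of box C/D snoRNA assembly, by 1.08 ± 0.15 (limma adjusted p = 0.0038 and 0.00046). Beside the deleted segment in srb2∆, NCP1 rose by 0.49 ± 0.11 (limma adjusted p = 0.0047) and BCD1 differed by 0.38 ± 0.15 (limma adjusted p = 0.055).

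SRB5, which encodes Med18, the direct partner of Srb2p, was at 25.8 and 28.3 RPKM in wild type, 33.4 and 32.0 in the sin3∆ libraries, 33.2 and 31.7 in the srb2∆ libraries, and 26.2 and 31.0 in mig1∆. It stood at 0.27 ± 0.10 (SE) on the log2 scale above wild type in sin3∆ and 0.25 ± 0.10 in srb2∆ (limma adjusted p = 0.041 and 0.0495). Both are marginal: in 6 of 13 alternatives in sin3∆ and 9 of 14 in srb2∆ the difference did not pass the test. In sin3∆ those included leaving out wild type replicate 2 (adjusted p = 0.15), sin3∆ replicate 1 (0.16) or sin3∆ replicate 2 (0.090), and in srb2∆ leaving out wild type replicate 2 (0.17), srb2∆ replicate 2 (0.19) or srb2∆ replicate 3 (0.10), all by limma. The direction was the same in every one.

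SRB6, which encodes the small head subunit Med22, was the most abundant of the 10, at 90.3 and 81.2 RPKM in wild type, 108 and 129 in the sin3∆ libraries, 113 and 107 in the srb2∆ libraries, and 73.9 and 93.4 in mig1∆. It rose by 0.46 ± 0.13 (SE) on the log2 scale in sin3∆ and by 0.36 ± 0.13 in srb2∆ (limma adjusted p = 0.014 and 0.041). Leaving out wild type replicate 3 or sin3∆ replicate 2 left the first short of the threshold (limma adjusted p = 0.069 and 0.093), and leaving out wild type replicate 3, srb2∆ replicate 2 or srb2∆ replicate 3 left the second short of it (limma adjusted p = 0.16, 0.15 and 0.088). SRB4 encodes Med17, the scaffold of the head, which cells cannot live without. It was at 19.3 and 17.9 RPKM in wild type, 20.2 and 20.1 in the sin3∆ libraries, 21.9 and 22.4 in the srb2∆ libraries, and 18.4 and 16.7 in mig1∆. It rose by 0.24 ± 0.08 in srb2∆ (limma adjusted p = 0.033) and differed by 0.11 ± 0.08 in sin3∆ (limma adjusted p = 0.26). The srb2∆ difference did not pass the test without wild type replicate 3, srb2∆ replicate 2 or srb2∆ replicate 3 (limma adjusted p = 0.11, 0.099 and 0.13).

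Taking the mean log2(RPKM + 1) of the genes of a module in each library, with no test, the 3 head genes SRB4, SRB5 and SRB6 stood 0.28 ± 0.05 (SD of the difference) above wild type in sin3∆ and 0.28 ± 0.04 in srb2∆. This mean does not stand for the whole head, since of its 4 genes outside the 10, described further on, 1 rose and 3 fell in each strain, with medians of -0.61 and -0.41. The tail pair GAL11 and MED2 stood at -0.80 ± 0.01 in sin3∆ and -0.10 ± 0.06 in srb2∆, the latter turning to 0.13 when rescaled without ribosomal protein genes. The pair does not stand for the whole tail either. RGR1, PGD1 and SIN4, also described further on, had medians of -0.26 in sin3∆ and 0.16 in srb2∆. The kinase module stood 0.73 ± 0.15 above wild type in sin3∆ and 0.21 ± 0.15 in srb2∆, and with SRB8 left out 0.17 ± 0.12 and -0.17 ± 0.11. Differences between modules were not tested. In mig1∆ the 3 head genes were at -0.02 ± 0.11, the tail pair at 0.15 ± 0.09 and the kinase module at 0.11 ± 0.18.

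The sin3∆ and srb2∆ strains were also compared directly. In the main fit these differences use no wild type library, while their standard errors and p-values rest on the spread in all 8 libraries. Of 9 genes 3 were higher in sin3∆, 2 lower, and the other 4 short of the threshold, against 30.9% of all genes higher and 27.9% lower, and 1 was called, SRB8, against 14.9% of all genes. MED2 was 1.88-fold lower in sin3∆, a log2 difference of -0.87 ± 0.08 (SE, limma adjusted p = 9.8e-05), and GAL11 was 1.45-fold lower, a difference of -0.52 ± 0.11 (limma adjusted p = 0.0048). SSN2 and SSN3 were higher in sin3∆ than in srb2∆ by 0.49 ± 0.14 and 0.31 ± 0.07 (limma adjusted p = 0.017 and 0.0066). Neither difference passed the test when rescaled on genes outside the ribosomal protein set (0.37 and 0.17, limma adjusted p = 0.087 and 0.11), and relative to the median of all genes these 2 values were 0.49 and 0.30. Quantile normalization gave 0.08 for SSN2 (limma adjusted p = 0.55), or 0.20 relative to the median. Of the 5 genes past the test, 3 remained so without sin3∆ replicate 2 or without srb2∆ replicate 3. Leaving out sin3∆ replicate 1, sin3∆ replicate 2 or srb2∆ replicate 3 left SSN2 short of the threshold (limma adjusted p = 0.066, 0.076 and 0.0998), and sin3∆ replicate 2 or srb2∆ replicate 3 did so for SSN3 (0.057 and 0.0503). The log2 difference of SRB4 was -0.13 ± 0.08, of SRB5 0.01 ± 0.10, of SRB6 0.10 ± 0.13 and of SSN8 0.22 ± 0.11 (limma adjusted p from 0.12 to 0.93).

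The other 15 Mediator genes in the table place the 10 within the whole complex. Of these 15, 1 rose and 7 fell in sin3∆, with a median log2 difference of -0.30, where 38.4% of all genes rose and 35.6% fell. In srb2∆ 4 rose and 6 fell, with a median of 0.13, where 35.5% of all genes rose and 36.3% fell. Leaving out 1 srb2∆ library at a time changed the srb2∆ counts to 1 risen and 4 fallen without replicate 2, and 0 and 5 without replicate 3. In srb2∆ 8 rose and 4 fell when rescaled without ribosomal protein genes, with a median of 0.35, and 6 rose and 6 fell after quantile normalization. Over all 5628 genes that rescaling gave 2520 risen and 1549 fallen, with a median of 0.21. Quantile normalization gave 2214 and 1861. The genes called, 3 of the 15 in sin3∆ and 1 in srb2∆, against 29.9% of all genes in each comparison, had all fallen. MED4, which encodes a core subunit of the middle module, had means of 250 RPKM in wild type, 52.5 in sin3∆ and 64.2 in srb2∆, log2 differences of -2.23 ± 0.07 (SE) and -1.95 ± 0.07 (limma adjusted p = 3.4e-07 and 5.3e-07). SOH1 (Med31, middle) fell by 1.57 and MED11 (head) by 1.72 on the log2 scale in sin3∆ (limma adjusted p = 3.3e-06 and 0.00049). In srb2∆ they fell by 0.91 and 0.95 (limma adjusted p = 4.9e-05 and 0.010), short of 2-fold on this scale. Of the other 4 head genes, MED6 rose by 0.51 in sin3∆ while MED8 fell by 0.66 and ROX3 by 0.56, all on the log2 scale (limma adjusted p = 0.0020, 0.0032 and 0.00083). RGR1, PGD1 and SIN4, the other genes listed here under tail and scaffold, had log2 differences between -0.30 and -0.10 in sin3∆. Of these, SIN4 passed the test (limma adjusted p = 0.020), but not on leaving out sin3∆ replicate 1 or 2 or wild type replicate 2. NUT1 (Med5), a subunit often placed in the tail, was listed here with the middle genes. Its means were 15.1 RPKM in wild type, 12.1 in sin3∆ and 20.1 in srb2∆. Over all 25 genes, 5 rose and 10 fell in sin3∆, against 38.4% and 35.6% of all genes tested. SRB8 was the gene with the largest rise among the 25 in sin3∆ and in srb2∆. In mig1∆ MED4 was the 1 gene of 25 that passed, at -0.32 ± 0.07 (limma adjusted p = 0.029), where 7.41% of all genes rose and 4.71% fell. MED4 did not pass without mig1∆ replicate 1, mig1∆ replicate 2 or wild type replicate 3. Without wild type replicate 2, more of the 25 passed in mig1∆, with SSN2 the only rise among them. More of all genes tested passed there too.

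**Figure D4:**
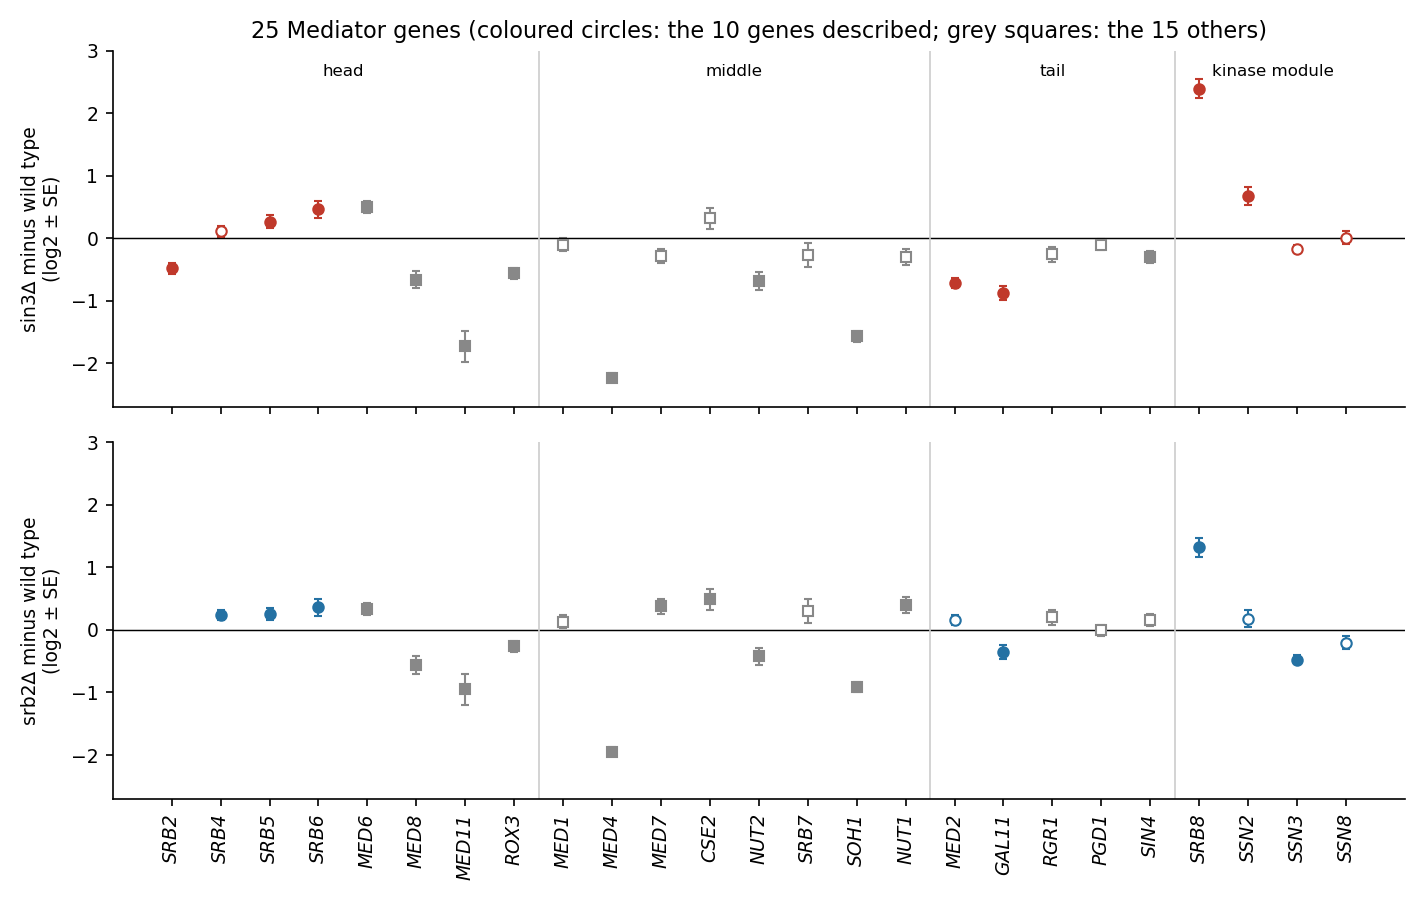
Log2 differences from wild type of the 25 Mediator genes in sin3∆ (top) and srb2∆ (bottom), with standard errors, by module. NUT1 is shown in the middle group. Coloured circles are the 10 genes described, grey squares the 15 others, and filled symbols have an adjusted p of at most 0.05. MED4 is lowest in both strains, at -2.23 and -1.95, and SRB8 highest, at 2.39 and 1.32.

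Genes that work with Mediator at promoters were listed from textbook knowledge and followed in the same way. Of the 12 subunits of RNA polymerase II, which the head contacts, 10 rose and none fell in srb2∆, where 35.5% of all genes rose and 36.3% fell. Their median log2 difference was 0.78 beside -0.01 over all genes. RPB5 rose by 1.65, RPC10 by 1.54, RPB9 by 1.29 and RPB8 by 1.27. In sin3∆ 5 of the 12 rose and none fell, with a median of 0.07, against 38.4% and 35.6% of all genes, and 3 fell without wild type replicate 2 and 2 without wild type replicate 3. Rescaling by quantile normalization also gave 2 that fell, where 2185 of all 5628 genes fell. Between sin3∆ and srb2∆ 11 of 12 were lower in sin3∆, against 27.9% of all genes, with a median of -0.80. The general transcription factors, which assemble with the polymerase at the promoter, showed 10 of 17 genes higher and 1 lower in srb2∆, against 35.5% and 36.3% of all genes. With the replicate number as a block in the fit, 8 rose and 0 fell, where 1730 of all 5628 genes rose and 1801 fell. Rescaled without ribosomal protein genes, 12 rose and 0 fell, where 2520 of all 5628 genes rose and 1549 fell. SPT15, the TATA-binding protein gene, rose by 0.88 in srb2∆. In sin3∆ 3 of 17 rose and 6 fell, against 38.4% and 35.6% of all genes, and 1 rose and 5 fell when wild type and sin3∆ alone were fitted. TOA1, a TFIIA subunit gene, fell by 0.82 in sin3∆. The largest upward difference of the 17 there was 0.94, that of TFB2, with means of 18.7 RPKM in wild type and 36.9 in sin3∆. Some polymerase subunits in this list, RPB5, RPO26, RPB8, RPB10 and RPC10 among them, are shared with RNA polymerases I and III.

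Among the 7 other transcription kinase and cyclin genes, CCL1, the cyclin of the TFIIH kinase, fell by 0.76 on the log2 scale in sin3∆ (limma adjusted p = 8.2e-05). In srb2∆ it fell by 0.35 (limma adjusted p = 0.0048), but the difference was -0.12 when rescaled without ribosomal protein genes (limma adjusted p = 0.23). SGV1 (Bur1), a kinase of the elongating polymerase, rose by 0.57 in srb2∆ (limma adjusted p = 0.00022). None of the 7 was called in any comparison, where 29.9% of all genes were called in sin3∆ and in srb2∆, and 1.65% in mig1∆. In srb2∆ 4 of them rose and 1 fell, against 35.5% and 36.3% of all genes. SSN3, the Mediator kinase, also fell there.

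Of 6 activators known to bind the tail, 1 rose and 3 fell in sin3∆, with a median log2 difference of -0.12. Over all genes 38.4% rose and 35.6% fell there. The activator gene that rose was GCN4, whose product binds Med15 to drive amino acid synthesis genes. Its log2 difference was 0.74 ± 0.08 (SE, limma adjusted p = 9.5e-05). When rescaled without ribosomal protein genes, 1 of the 6 rose and 1 fell in sin3∆, where 2272 of all 5628 genes rose and 1727 fell. HSF1, the heat shock factor gene, fell by 0.87 in sin3∆ and 0.96 in srb2∆ (limma adjusted p = 0.00010 and 6.2e-05). GAL4, whose promoter is a known Mig1p target, rose by 1.22 ± 0.17 in mig1∆ (limma adjusted p = 0.0059) and fell by 0.99 in srb2∆ (limma adjusted p = 0.0014). Its means were 7.29 RPKM in wild type, 18.4 in mig1∆ and 3.17 in srb2∆.

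The 6 known substrates of Cdk8 that were listed include 2 of these activators, since GCN4 and GAL4 belong to both lists. SIP4, a transcription factor gene of gluconeogenesis, had a mean of 2.11 RPKM in wild type, 29.2 in sin3∆ and 0.44 in srb2∆. It rose by 3.28 ± 0.15 (SE) in sin3∆ and fell by 1.10 ± 0.15 in srb2∆ (limma adjusted p = 1.4e-06 and 0.00031). STE12, the mating and filamentation factor gene, fell by 0.64 in sin3∆ and rose by 0.39 in srb2∆ (limma adjusted p = 0.00048 and 0.0060). MSN2, a general stress factor gene, fell by 0.62 in sin3∆ and 0.36 in srb2∆ (limma adjusted p = 0.00013 and 0.0022), the second -0.13 when rescaled without ribosomal protein genes (limma adjusted p = 0.24). PHD1, a filamentation factor gene, fell by 0.83 in mig1∆ (limma adjusted p = 0.0066), and it was higher in srb2∆, with a mean of 54.7 RPKM against 37.7 in wild type. These are transcript levels and carry no information on phosphorylation.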

How the data were processed

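RNA from 8 libraries (4 strains, 2 each) was sequenced by the study as paired reads. Per its methods, the authors mapped reads to the S288c reference (R64) with Bowtie2, quantified genes with RSEM and tested them with DESeq2. The deposited unit is RPKM. The columns sum to between 862336 and 1150769, with a geometric mean of 999854, so the values appear to carry a further scaling between libraries; no read counts were used, depth per library cannot be read from the table, and whether counting used strand is not given in the sources used here. The tables of the authors' own comparisons hold fold changes and p-values and were not used.

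Here, log2(RPKM + 1) was fitted with limma 3.58.1 in R 4.3.3 (4 groups together, trended prior) on the 5628 genes at 1 RPKM or more in at least 2 libraries, with Benjamini-Hochberg adjustment over all of them, and tested on simulated data first. Thresholds (0.05, 2-fold) follow the study. Named genes are the 10 members, the deleted genes, neighbours of SRB2 and, per list and comparison, up to 4 genes with the largest difference past the threshold; lists of up to 8 may be named whole. Neighbours of SRB8 were added after its values were seen. The members and lists were chosen with earlier results of these data known. Sequences came from R64 and the study's primer list. Alternatives changed scaling, filter, pseudocount, prior, groups fitted, fold threshold and libraries, 1 at a time.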

Additional observations from a re-analysis of the deposited data

How the results depend on the processing

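Across 503 refits of the members' log2 differences, 458 stayed on the same side of the threshold, 39 no longer passed the test, 6 newly passed it, and 0 differences past the test changed sign. Among those 458, 21 changed sign short of the threshold, from main values of at most 0.21 in size. For 33 other named genes, 1637 of 1749 refits stayed on the same side, 86 no longer passed, 26 newly passed and 0 past the test changed sign, while 48 did so short of the threshold. The rise of SRB8 in sin3∆ was between 1.73 and 2.65 and called in 13 of 13 alternatives; in srb2∆ it was between 0.86 and 1.55 and called in 13 of 14. In sin3∆ the falls of MED2 (-0.79 to -0.62), GAL11 (-0.92 to -0.78) and SRB2 (-0.53 to -0.39) passed the test in all 13. With no fold threshold the counts past the test were 7 in sin3∆, 6 in srb2∆ and 5 between the 2 strains, in place of 1 each. A pseudocount of 5 gave 0 called members in srb2∆ and 0 between sin3∆ and srb2∆, and quantile normalization gave 0 in the latter; leaving out 1 library at a time gave 0 to 1 there, with 0 without srb2∆ replicate 3. Rescaled without ribosomal protein genes that comparison still had 1 called member, but it was MED2 (-1.01) in place of SRB8 (0.94). Module differences from wild type moved by more than their SD as follows. Rescaling without ribosomal protein genes gave 0.37 for the 3 head genes in sin3∆, 0.51 for the same genes, 0.42 for the kinase module, 0.053 for the kinase module without SRB8 and 0.13 for the tail in srb2∆, and -0.71 for the tail in sin3∆. Quantile normalization gave 0.32 for the 3 head genes and -0.039 for the kinase module without SRB8 in srb2∆ and -0.86 for the tail in sin3∆. Median-ratio scaling gave -0.83 and a pseudocount of 0.1 gave -0.82 for the tail in sin3∆, and a pseudocount of 5 gave -0.70 for that tail and 0.52 for the kinase module in sin3∆.

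Of the strains compared, only wild type and srb2∆ share 2 replicate numbers, and the other comparisons share 1. Their deviations correlated at 0.061, and nothing in the labels says that a number marks a shared culture or day. A replicate block left 1 called member in srb2∆, SRB8, as without it, and left SRB4 and SRB5 short of the threshold (limma adjusted p = 0.14 and 0.12).

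No read counts were used, so no counting interval is given for scarce genes such as SRB8 in wild type. A leave-one-out fit assumes that the lone library of a strain varies like the others. Each deletion is described by 1 strain, so effects of the strain and of the deletion cannot be told apart.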
